A study of Mus musculus with 10 samples.

Results

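Collagens, laminins, nidogens, perlecan, fibronectin, fibulins, fibrillins and emilins build the extracellular matrix, and integrins are the paired receptors by which cells hold on to it. These genes were taken from the deposited table by their symbols: protein-coding rows whose symbol is that of a collagen chain, a laminin chain, an integrin alpha or beta subunit, Nid1, Nid2, Hspg2, Fn1, a fibulin, Fbn1, Fbn2 or an emilin. The rule found 89 of the 18464 genes. Of these, 86 are matrix or integrin chains, and 3 match by name only: Col4a3bp, which encodes a ceramide transfer protein, and Itgb1bp1 and Itgb3bp, which encode proteins named for binding integrin tails. The 86 comprise 41 collagen chains, 15 integrin alpha and 7 integrin beta subunits, 11 laminin chains, 3 genes for nidogens and perlecan, and 9 for fibronectin, fibulins, fibrillins and emilins. A further 12 genes that fit the pattern, among them Itga2, Itgax, Itgb7 and Col4a3, were not analysed here.

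The compared libraries were 5 of the astrocyte fraction and 5 of input, all of ventral midbrain tissue labelled SNpc/VTA. The mice were naive and of the Aldh1l1-NuTRAP strain, and the labels used here give neither age nor sex. NuTRAP mice carry a tag on ribosomes and nuclei, here placed by the strain name in cells that use Aldh1l1, a gene of astrocytes. The astrocyte fraction is RNA pulled down with tagged ribosomes, and the input is RNA of the central nervous system cell types of the region before the pull-down, so both groups come from animals with the tag. Polyadenylated RNA was sequenced from libraries made with 25 ng of total RNA, and titles carry the numbers 88, 92, 976, 981 and 982, each on 1 fraction and 1 input library. The labels do not say that the numbers are separate animals, so the spread behind each p-value is that of these libraries and may be technical.

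Laminins are trimers of an alpha, a beta and a gamma chain and join collagen IV, nidogen and perlecan in basement membranes. In the brain such a sheet lies between astrocyte endfeet and the vessel wall and under the pia, and astrocytes lay down part of it. Integrins pair 1 alpha with 1 beta subunit; the pair with Itgav and Itgb8 is known on astrocytes for releasing active TGF-beta from its latent form in the matrix, and pairs of Itga6 or Itga7 with Itgb1 bind laminins.

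The upstream sequences of genes discussed together are shown first. Each window is RefSeq's, on GRCm38.p6, from 250 bases before to 50 bases after the start of transcription, printed along the gene's own strand, 5′ to 3′. Capitals mark exact matches, on either strand, to GGGCGG (a GC box, CCGCCC on the other strand), CCAAT (on the other strand ATTGG) and TATAAA (on the other strand TTTATA). The first 3 belong to Itgav (chr2:83724147-83724446, strand +), Itgb8 (chr12:119238227-119238526, strand -) and Itgb5 (chr16:33829415-33829714, strand +), an alpha subunit and the beta subunits that pair with it, all of them higher in the astrocyte fraction:
Itgav: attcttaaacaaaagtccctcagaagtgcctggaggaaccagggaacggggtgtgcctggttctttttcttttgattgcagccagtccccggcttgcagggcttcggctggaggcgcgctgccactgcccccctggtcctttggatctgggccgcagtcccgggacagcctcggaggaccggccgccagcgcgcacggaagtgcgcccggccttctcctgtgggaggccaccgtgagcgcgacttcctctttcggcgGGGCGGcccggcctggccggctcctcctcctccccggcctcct
Itgb8: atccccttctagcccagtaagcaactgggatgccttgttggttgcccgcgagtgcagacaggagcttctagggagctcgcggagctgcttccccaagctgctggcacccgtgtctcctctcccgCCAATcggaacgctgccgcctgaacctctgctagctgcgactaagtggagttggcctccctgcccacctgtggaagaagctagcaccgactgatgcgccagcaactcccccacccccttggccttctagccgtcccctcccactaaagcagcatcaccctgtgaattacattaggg
Itgb5: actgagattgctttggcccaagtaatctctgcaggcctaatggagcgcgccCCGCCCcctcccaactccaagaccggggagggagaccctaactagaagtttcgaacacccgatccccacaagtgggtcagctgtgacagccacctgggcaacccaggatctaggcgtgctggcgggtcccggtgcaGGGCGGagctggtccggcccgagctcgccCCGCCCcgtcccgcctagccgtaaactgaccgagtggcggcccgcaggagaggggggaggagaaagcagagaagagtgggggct
The Itgav window holds 1 GC box, the Itgb5 window holds 3 and the Itgb8 window holds 1 CCAAT box.

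Collagen IV genes lie head to head in pairs, and their upstream regions are shown because the members of a pair departed from each other in the astrocyte fraction. The start of Col4a5 (chrX:141475169-141475468, strand +) lies 1343 bases from that of Col4a6 (chrX:141474027-141474326, strand -), and the starts of Col4a1 and Col4a2 lie 21 bases apart and overlap, so that their windows share 78 bases (chr8:11312777-11312854, strand +), printed here along the strand of Col4a2:
Col4a5: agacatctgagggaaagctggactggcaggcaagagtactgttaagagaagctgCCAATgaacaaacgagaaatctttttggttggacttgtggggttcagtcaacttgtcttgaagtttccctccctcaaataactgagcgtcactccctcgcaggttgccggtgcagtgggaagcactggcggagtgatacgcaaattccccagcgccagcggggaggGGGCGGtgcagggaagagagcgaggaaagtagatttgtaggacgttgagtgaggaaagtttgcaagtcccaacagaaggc
Col4a6: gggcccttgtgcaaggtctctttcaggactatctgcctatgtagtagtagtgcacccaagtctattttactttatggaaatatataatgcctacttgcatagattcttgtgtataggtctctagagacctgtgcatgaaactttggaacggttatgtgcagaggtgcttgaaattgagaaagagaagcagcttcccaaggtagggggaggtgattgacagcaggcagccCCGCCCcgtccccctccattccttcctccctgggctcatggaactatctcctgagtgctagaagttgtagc
Col4a1 and Col4a2: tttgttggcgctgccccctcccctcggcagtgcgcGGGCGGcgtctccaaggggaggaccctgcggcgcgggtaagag
A GC box stands once in each of these 3 stretches, and Col4a5 also has 1 CCAAT box. Of the 89 genes, 64 matched a RefSeq window. A GC box was found in 56.2% of their windows and in 35.7% of the 32851 windows in the table, a CCAAT box in 27.4% and 37.4%, and a TATA box in 5.48% and 13.6%. These are matches of letters only.

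Totals of expected counts ran from 24479136 to 26924406 in 4 astrocyte fraction libraries, 3845554 in fraction library 92, and from 21812193 to 30878894 in the input. Levels are CPM, counts scaled to the TMM-adjusted depth of their library. A count of 0 allows up to 3 counts, which stand for 0.880 CPM in fraction library 92, 0.120 to 0.136 CPM in the other fraction libraries and 0.0912 to 0.125 CPM in the input, covering counting error only. Aldh1l1 itself stood at 877, 773, 673, 849.6 and 899 CPM in the astrocyte fraction and 108, 99, 88.2, 104 and 98.1 CPM in the input. All 10 astrocyte markers were higher in the fraction, and all 12 neuronal, 8 oligodendrocyte, 6 precursor and 10 microglial markers were lower. The summed level of 7 choroid plexus markers was 174, 126, 19870, 154 and 4106 CPM in the fraction and 279, 254, 4977, 263 and 1156 CPM in the input, so libraries 976 and 982 stood apart in both groups, and results are also given without these numbers. A lower value in the fraction is a smaller share of the pulled-down RNA than of the input RNA. Which cells the remaining reads of the fraction come from cannot be told from these libraries.

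Per-library values below always run in the order 88, 92, 976, 981 and 982. Log2 differences are astrocyte fraction minus input from edgeR's quasi-likelihood test over 17672 genes, and a call means an adjusted p (Benjamini-Hochberg) below 0.05. They are written as log2 difference ± SE. The SE is that of the difference in mean log2 CPM between the groups, not of edgeR's estimate. The 2 can part where a library lies far out. For Col8a2, the log2 CPM differences by number were -1.935, -1.175, 2.351, -1.785 and 1.699, beside edgeR's 2.06. Of the 88 members tested, 23 were called higher in the astrocyte fraction, against a background of 33.1% of all genes tested, and 40 were called lower, against 37.5% (70.6% called in all). That is 26.1% of the members higher and 45.5% lower. At least 2-fold, 16 were higher and 33 lower (background 16.1% and 24.3%), and the libraries of the groups did not overlap for 18 higher and 26 lower (background 27.2% and 31.1%, 58.3% together). Every gene of the table has 5 or more counts in all libraries of a group; 47 members do so in both groups and 42 in the input only, so a gene of the second kind had little room to come out higher. Of the 41 such members tested, 0 were higher and 27 lower (65.9%), against a background of 4.92% higher and 53.7% lower over the 3662 genes of that kind. Of the 47 with 5 counts in every library, 23 were higher (48.9%) and 13 lower (27.7%), against 40.1% and 33.5% of the 13895 such genes. All 23 higher calls thus lie among the 47, and 27 of the 40 lower calls among the 41. Without numbers 976 and 982, 22 of 87 members were higher (background 32.9%) and 41 lower (background 32.8%, with 65.7% called in all). With libraries scaled to total counts the median log2 difference of all genes was -0.34, against -0.06 with TMM, and the members' calls were 18 higher and 50 lower (20.5% and 56.8%), beside a background under that scaling of 24.3% higher and 47.1% lower. With title number as a block, 23 were higher and 46 lower (26.1% and 52.3%), beside 33.3% and 38.7% of all genes.

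**Figure D1:**
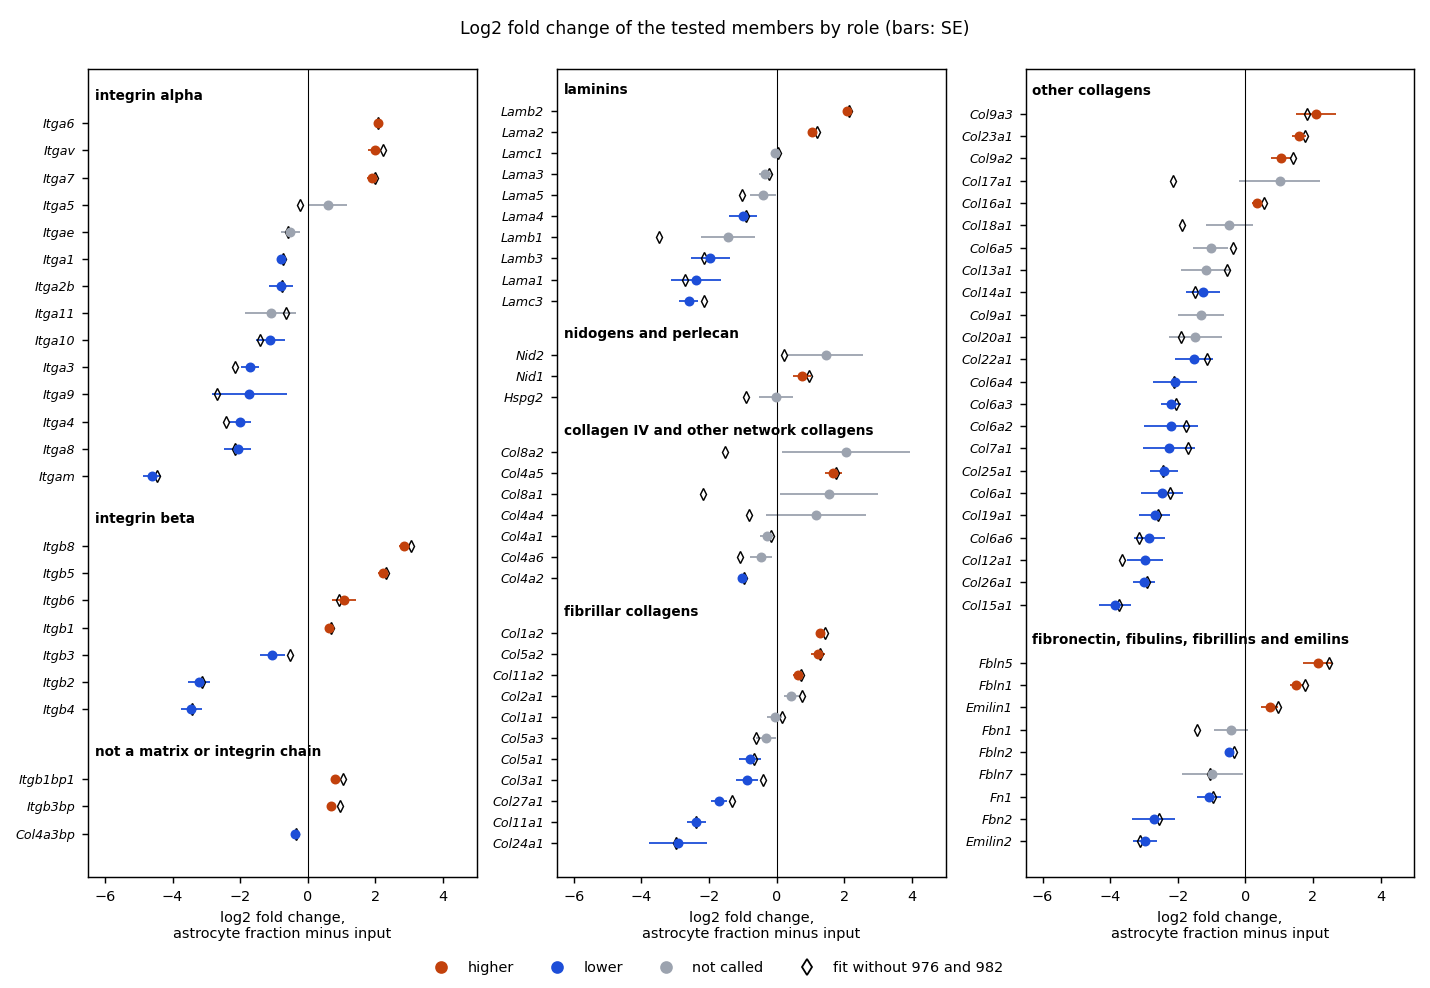
Log2 difference of CPM, astrocyte fraction minus input (horizontal axis), for 87 of the 88 tested genes by role. Circles are the fit to all 10 libraries, coloured by call, and open diamonds are the fit without numbers 976 and 982. Bars are the SE of the difference in mean log2 CPM. Values run from -4.61 for the row named Itgam to 2.86 for Itgb8, and circle and diamond part most for Col8a2, Col8a1 and Col17a1.

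Among integrins, Itgav and its beta partners Itgb8 and Itgb5 were each several-fold higher in the astrocyte fraction. Itgb8 (chr12:119158022-119238802) stood at 404, 510.0, 302, 486 and 341 CPM in the astrocyte fraction. Against this, the input libraries had 58, 62.6, 53.6, 59.6 and 47 CPM. The lowest fraction library was above every input library by several times, and numbers 92 and 981 were the highest in the fraction. The difference was 7.26-fold (log2 2.86 ± 0.16, edgeR adjusted p = 3.00e-09), the largest of the higher differences among the 88 genes. Itgav (chr2:83724397-83806916), the only alpha subunit that Itgb8, Itgb5 and Itgb6 are known to pair with, read 185, 251, 124, 206 and 149.9 CPM in the astrocyte fraction and 49.9, 52, 39.9, 45.3 and 43.4 CPM in the input. Its fraction libraries kept the order of those of Itgb8, with 92 highest and 976 lowest, and did not overlap the input (3.95-fold; log2 1.98 ± 0.19, edgeR adjusted p = 3.58e-07). Itgb5 (chr16:33829665-33949153), a receptor chain for vitronectin, gave 324, 236, 346, 349 and 345 CPM in the astrocyte fraction. Input libraries read 77.3, 58.4, 77.9, 63.4 and 68.6 CPM. Library 92 was low in both groups and still lay above all input libraries (log2 2.21 ± 0.13, edgeR adjusted p = 3.86e-09). Of the motifs searched, none stands in all 3 of their windows printed above.

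Within a library the ratio of 2 genes does not depend on the scaling of that library. The log2 ratio of Itgb8 to Itgav was 1.02 to 1.29 in the fraction and 0.12 to 0.43 in the input, while that of Itgb5 to Itgav overlapped, at -0.09 to 1.48 in the fraction and 0.17 to 0.97 in the input. Itgb8 and Itgav thus kept a narrow ratio across the 5 fraction libraries, whereas Itgb5 and Itgav did not. Itgb6, known mainly from epithelia, was low, with 1.54, 1.47, 3.03, 1.11 and 1.9 CPM in the astrocyte fraction and 0.632, 1.1, 1.4, 0.457 and 0.575 CPM in the input. The groups overlapped although each number had more in the fraction (log2 1.08 ± 0.36, edgeR adjusted p = 0.0144), and the call was lost without 976 and 982 (0.92, edgeR adjusted p = 0.0727) and under total-count scaling (0.83, edgeR adjusted p = 0.0524). Itgb3, which pairs with Itgav and with the platelet subunit Itga2b, was lower (log2 -1.05 ± 0.38, edgeR adjusted p = 0.0141), a call lost without 976 and 982 (-0.54, edgeR adjusted p = 0.193). Itga2b was lower too (log2 -0.80 ± 0.35, edgeR adjusted p = 0.0228) and lost its call without those numbers (-0.75, edgeR adjusted p = 0.127) and without fraction 981, fraction 982 or input 88 alone (edgeR adjusted p 0.0538 to 0.0662).

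Laminin receptor subunits parted into 2 directions. Itga6 (chr2:71745616-71858416) stood at 89.9, 88.5, 89.9, 100.1 and 116 CPM in the astrocyte fraction. The input held 22.6, 24, 21.2, 23.8 and 21.8 CPM. Libraries of each group lay close together and the groups were far apart (4.26-fold; log2 2.09 ± 0.08, edgeR adjusted p = 4.86e-10). Itga7, the laminin-binding partner of Itgb1 best known from muscle, read 74.9, 72.2, 76.2, 89.1 and 101 CPM in the fraction against 18.1, 26.1, 23.9, 20.2 and 22.7 CPM in the input, again without overlap (log2 1.9 ± 0.13, edgeR adjusted p = 1.65e-08). Their common partner Itgb1, the beta subunit of most integrins, rose less, with 95.5, 98.7, 108, 90.3 and 97.3 CPM in the astrocyte fraction and 60.4, 65.3, 62, 64.9 and 62.5 CPM in the input. All 5 fraction libraries lay above all input libraries (1.55-fold; log2 0.64 ± 0.05, edgeR adjusted p = 1.83e-06).

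Itga3, which with Itgb1 binds the laminins of epithelia and vessels, went the other way, at 13.4, 15.2, 35.1, 12.6 and 18.8 CPM in the astrocyte fraction. Against this, the input libraries had 56.4, 75.9, 59.9, 62.2 and 63.3 CPM. Fraction 976 was high against the other 4 but still below the input (log2 -1.71 ± 0.28, edgeR adjusted p = 1.04e-04; -2.15, edgeR adjusted p = 1.72e-06 without 976 and 982). Itgb4 (chr11:115974709-116008412), which pairs with Itga6 alone and anchors epithelial cells to laminin, gave 3.14, 1.17, 4.1, 3.14 and 2.81 CPM in the astrocyte fraction and 38, 33.9, 32.2, 30.4 and 38 CPM in the input. With 4 counts in fraction 92, Itgb4 was in the table through the input alone, which left little room for a higher value. The highest fraction library had 4.10 CPM and the lowest input library 30.4 CPM (10.9-fold lower; log2 -3.44 ± 0.30, edgeR adjusted p = 3.23e-09). The log2 ratio of Itgb4 to Itga6 was -6.24 to -4.45 in the fraction and 0.35 to 0.80 in the input, the widest split of the 16 chain pairs examined. The log2 ratio of Itga6 to Itgb1 was -0.27 to 0.26 in the fraction and -1.55 to -1.42 in the input, and that of Itga3 to Itgb1 was -2.84 to -1.62 in the fraction and -0.10 to 0.22 in the input. Pairs of chains were chosen with values known, so these ratios describe the libraries and carry no test.

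**Figure D2:**
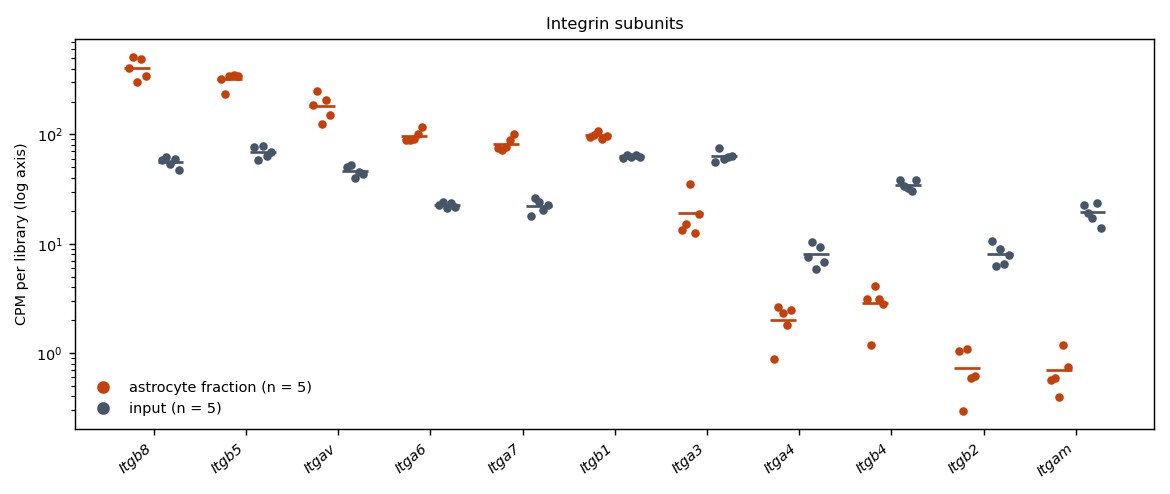
CPM (log axis) of 11 integrin subunits in each of the 5 astrocyte fraction libraries and 5 input libraries; points are libraries and lines are means. Itgb8, Itgb5, Itgav, Itga6, Itga7 and Itgb1 lie higher in the fraction, and Itga3, Itga4, Itgb4, Itgb2 and the row named Itgam lie lower, with no overlap between groups for any of the 11.

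Leukocyte integrins were at the other end. Itgb2, the beta subunit of white blood cells and microglia, stood at 1.04, 0.293, 1.08, 0.59 and 0.61 CPM in the astrocyte fraction. Input libraries read 10.5, 6.25, 8.95, 6.52 and 7.8 CPM. The highest fraction library had 1.08 CPM, and the groups did not overlap (9.28-fold lower; log2 -3.21 ± 0.32, edgeR adjusted p = 2.12e-07). The row named Itgam read 0.571, 0.587, 0.399, 1.18 and 0.746 CPM in the astrocyte fraction and 22.8, 19, 17.3, 23.6 and 14 CPM in the input, again far apart (log2 -4.61 ± 0.27, edgeR adjusted p = 6.42e-09). Its identifier is not that of the Itgam gene in GENCODE M21 but of a model, Gm49368, that shares 79.1% of its exon bases with Itgam and Gm45700 on the same strand, so how reads were split is uncertain. In fraction 92 Itgb2 had 1 count and the row named Itgam had 2. Both were in the table through the input alone, which left little room for a higher value in the fraction. Microglial markers moved alongside: their summed level was 56.1 to 71.8 CPM in the fraction and 405 to 555 CPM in the input, all 10 were called lower, C1qc and Aif1 were at 0 in a fraction library and none was at 0 in all 5, and their part in these values was not tested. Itgal, a lymphocyte subunit, was too low for the test, at 0.36, 0, 0.359, 0.385 and 0.407 CPM in the astrocyte fraction and 0.248, 0.213, 0.553, 0.249 and 0.664 CPM in the input.

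The remaining alpha subunits were lower or not called. Itga8, which with Itgb1 binds RGD motifs such as that of nephronectin, stood at 0.163, 0.293, 0.558, 0.229 and 0.271 CPM in the astrocyte fraction. The input held 0.558, 1.73, 2.23, 1.46 and 1.72 CPM. Only fraction 976 and input 88, both at 0.558 CPM, touched (log2 -2.07 ± 0.39, edgeR adjusted p = 3.92e-04). Itga4 (-2.0; edgeR adjusted p = 3.18e-05) and Itga9 (-1.73; edgeR adjusted p = 0.0121), related subunits for fibronectin, VCAM-1 and tenascin-C, were lower without overlap. Of the collagen-binding subunits, Itga1 was lower (log2 -0.79 ± 0.10, edgeR adjusted p = 6.62e-04), as was Itga10 (log2 -1.1 ± 0.43, edgeR adjusted p = 0.0237), which shares 33.5% of its exon bases with Gm42957 on the same strand and lost its call without fraction 981, fraction 982 or input 981 (edgeR adjusted p 0.0523 to 0.0593). Itga11 was not called (log2 -1.09 ± 0.76, edgeR adjusted p = 0.0676), but was lower with title number as a block (-1.29, edgeR adjusted p = 0.0219), under total-count scaling (-1.36, edgeR adjusted p = 0.0288) and without fraction 88 or fraction 981 (edgeR adjusted p 0.0459 and 0.0407). Itga5, the fibronectin receptor subunit, was not called (log2 0.59 ± 0.58, edgeR adjusted p = 0.247), with 6.48 CPM in fraction 976 and 0.587 to 2.07 CPM in the other fraction libraries. Itgae, the subunit that binds E-cadherin, was not called (log2 -0.51 ± 0.29, edgeR adjusted p = 0.145) except under total-count scaling, where it was lower (-0.76, edgeR adjusted p = 0.0359).

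Divided by exon length, integrin levels can be set beside each other, though only roughly. The length covers all annotated exons of a gene and not the transcripts expressed. Itgb5 was highest among beta subunits in both groups, with 90.1 ± 13.5 CPM per kb in the fraction and 19.5 ± 2.4 in the input, and Itgb8 came next in the fraction with 37 ± 8.13 CPM per kb against 5.08 ± 0.55 in the input. Itgb1, at 24 ± 1.59 CPM per kb in the fraction and 15.4 ± 0.5001 in the input, was below Itgb8 in the fraction and above it in the input (SD, n = 5 each). Of the summed beta subunits, Itgb8 held 24.4 ± 6.11% in the fraction and 10.6 ± 1.44% in the input. Among alpha subunits Itgav led in the fraction, with 38.9 ± 9.22% of the sum against 14.7 ± 0.98% in the input. Itga3 led in the input: it held 7.76 ± 4.14% in the fraction and 38.1 ± 3.20% in the input. By subunit, 3 of 14 alpha subunits tested were higher and 8 lower, and 4 of 7 beta subunits were higher and 3 lower, where 33.1% of all genes tested were higher and 37.5% lower. Of these 11 lower subunits, 8 had 5 counts in every library of the input only. These were Itgb2, Itgb3, Itgb4, Itga2b, Itga8, Itga9, Itga10 and the row named Itgam.

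Of the 10 laminin chains described here, 2 were higher in the astrocyte fraction, 4 were lower and 4 were not called, where the background was 33.1% higher and 37.5% lower. All 4 lower chains had 5 counts in every library of the input only. Lamb2 (chr9:108479736-108490530), the beta chain of vascular, glial and synaptic basement membranes, stood at 134, 98.1, 107, 134 and 146 CPM in the astrocyte fraction and 29.8, 30.6, 27.6, 28.9 and 29.1 CPM in the input. Its input libraries spanned 27.6 to 30.6 CPM only, and each fraction library was more than 3 times higher (4.23-fold; log2 2.08 ± 0.11, edgeR adjusted p = 2.15e-09). Lama2 (chr10:26980036-27619758), whose product is the alpha chain of the laminin of muscle, Schwann cells and astrocytes, read 29.9, 28.8, 20.1, 30.1 and 33.7 CPM in the astrocyte fraction. Against this, the input libraries had 12.8, 14.8, 13.5, 14 and 13.7 CPM. Number 976 was the lowest of the fraction, and the groups did not overlap (2.07-fold; log2 1.05 ± 0.13, edgeR adjusted p = 8.40e-06). Lamc1 (chr1:153218922-153332786), the gamma chain that both join in trimers, differed little: 32.9, 29.3, 28.9, 33.4 and 29.98 CPM in the astrocyte fraction and 37.7, 34.5, 30.1, 28.7 and 27.5 CPM in the input. The groups overlapped and Lamc1 was not called (log2 -0.04 ± 0.10, edgeR adjusted p = 0.769); with total-count scaling it was called lower (-0.32, edgeR adjusted p = 0.0126).

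The ratios between these chains did not overlap between the groups. The log2 ratio of Lamb2 to Lamc1 was 1.74 to 2.28 in the fraction and -0.34 to 0.09 in the input, and that of Lama2 to Lamc1 was -0.52 to 0.17 in the fraction and -1.56 to -1.0 in the input. Per kb of exon, Lamb2 held 96.1 ± 5.27% of the summed beta chains in the fraction and 66.4 ± 4.38% in the input, and Lama2 held 59.8 ± 14.2% of the alpha chains in the fraction and 29.3 ± 1.74% in the input (SD, n = 5 each). Per kb of all annotated exons, Lamb2 was thus the highest laminin chain of the fraction, at 20.3 ± 3.31 CPM per kb. Lamc1 stood at 3.73 ± 0.254 and Lama2 at 1.75 ± 0.309 CPM per kb.

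Lama1, the alpha chain of embryonic and pial basement membranes, stood at 0.712, 0.147, 1.56, 0.556 and 0.362 CPM in the astrocyte fraction. Input libraries read 4.62, 2.9, 4.54, 5.57 and 3.17 CPM. Its groups were apart, although fraction 976 was high among the fraction libraries (5.24-fold lower; log2 -2.39 ± 0.74, edgeR adjusted p = 2.08e-04). Lamc3, a gamma chain known from cortex and retina, gave 1.55, 0.587, 0.558, 0.513 and 0.814 CPM in the astrocyte fraction and 5.08, 5.34, 6.37, 4.46 and 6.02 CPM in the input. Fraction 88 was the highest of its group and still below the input (log2 -2.59 ± 0.28, edgeR adjusted p = 4.76e-06). Lamb3, a beta chain of the laminin of skin, was also lower (log2 -1.96 ± 0.58, edgeR adjusted p = 2.78e-04), while Lama3, an alpha chain of that laminin, was not called (log2 -0.33 ± 0.19, edgeR adjusted p = 0.203) except under total-count scaling, where it was lower (-0.60, edgeR adjusted p = 0.0256).

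Of the vascular chains, Lama5 and Lamb1 turned on fraction 976, while the call of Lama4 was lost without any of several single libraries. Lamb1 was 2.02, 2.27, 26.1, 1.11 and 6.08 CPM in the astrocyte fraction. The input held 18.6, 28.7, 26.3, 16.1 and 19.1 CPM. Fraction 976 alone reached the input range, so that Lamb1 was not called in all libraries (log2 -1.44 ± 0.79, edgeR adjusted p = 0.117) and was called lower without 976 and 982 (-3.48, edgeR adjusted p = 1.52e-05), without fraction 976 alone (-2.75, edgeR adjusted p = 0.000197) and with title number as a block (-2.15, edgeR adjusted p = 0.0419). Lama5, not called (log2 -0.40 ± 0.39, edgeR adjusted p = 0.335), became lower without 976 and 982 (-1.02, edgeR adjusted p = 0.00636), without fraction 976 alone (-0.83, edgeR adjusted p = 0.00574) and with the block (-0.54, edgeR adjusted p = 0.0486). Lama4 was lower (log2 -1.0 ± 0.41, edgeR adjusted p = 0.0245), and lost that call without 976 and 982 (-0.89, edgeR adjusted p = 0.149) and without fraction 976, fraction 981, input 88 or input 92 (edgeR adjusted p 0.0564 to 0.0821).

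**Figure D3:**
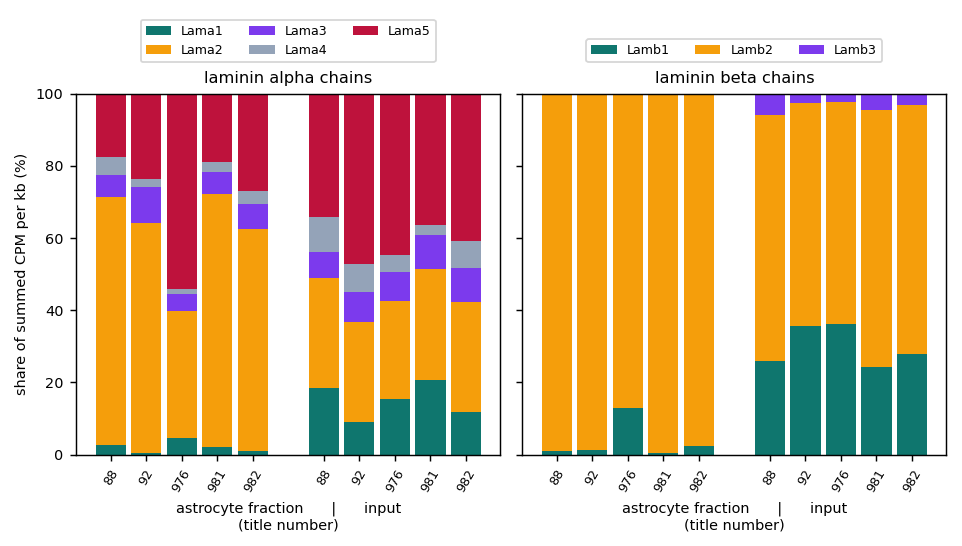
Share of the summed CPM per kb of exon (vertical axis, %) held by each laminin alpha and beta chain in each library, with the 5 astrocyte fraction libraries left of the 5 input libraries. Lamb2 averages 96.1% of beta chains in the fraction and 66.4% in the input, and in fraction 976 Lamb1 and Lama5 take larger shares than in the other fraction libraries.

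The linkers of the basement membrane differed among themselves. Nid1, which bridges laminin and collagen IV, read 12.4, 19.4, 7.68, 19.2 and 12 CPM in the astrocyte fraction and 9.74, 9.57, 6.85, 8.13 and 6.69 CPM in the input. Each number had more in the fraction than in its input, but fraction 976 lay inside the input range (log2 0.75 ± 0.27, edgeR adjusted p = 0.0112), and the call was lost under total-count scaling (0.46, edgeR adjusted p = 0.0794). Nid2, its relative, stood at 3.04, 0.587, 30.2, 1.31 and 11.7 CPM in the astrocyte fraction. Against this, the input libraries had 2.29, 1.34, 9.35, 1.5 and 3.09 CPM. Numbers 976 and 982 were highest in both groups, and Nid2 was not called (log2 1.46 ± 1.11, edgeR adjusted p = 0.198) unless title number was a block, when it was higher (0.91, edgeR adjusted p = 0.0385). Perlecan, Hspg2, a heparan sulfate proteoglycan, gave 4.11, 3.68, 21.4, 3.73 and 10.1 CPM in the astrocyte fraction and 8.18, 8.53, 12, 7.19 and 8.92 CPM in the input. Fraction 88, 92 and 981 were below every input library, whereas 976 was above them and 982 among them; without 976 and 982 Hspg2 was lower (all libraries: log2 -0.01 ± 0.51, edgeR adjusted p = 0.984; without: -0.91, edgeR adjusted p = 0.00404).

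Collagen IV chains of 1 gene pair did not move together. Col4a2 (chr8:11312805-11449287) stood at 16.1, 17.1, 15.3, 16.9 and 18.7 CPM in the astrocyte fraction. Input libraries read 34.6, 37.5, 34.4, 32.3 and 31 CPM. Its 5 fraction libraries spanned 15.3 to 18.7 CPM and its input libraries 31 to 37.5 CPM (2.02-fold lower; log2 -1.01 ± 0.07, edgeR adjusted p = 4.31e-07). Col4a1 (chr8:11198423-11312826), transcribed the other way from the shared region printed above, read 23.2, 30.9, 16.8, 22.9 and 24.5 CPM in the astrocyte fraction and 24.5, 35.8, 30.2, 29.8 and 22.8 CPM in the input. Here the groups overlapped and there was no call (log2 -0.30 ± 0.18, edgeR adjusted p = 0.115); Col4a1 was called lower under total-count scaling (-0.58, edgeR adjusted p = 0.0033) and without fraction 92 (-0.38, edgeR adjusted p = 0.0386). The log2 ratio of Col4a2 to Col4a1 was below 0 in each fraction library (-0.86 to -0.13) and above 0 in each input library (0.07 to 0.50).

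Col4a5 (chrX:141475385-141689234), a chain of kidney and smooth muscle basement membranes, gave 9.38, 9.71, 11.8, 8.81 and 6.69 CPM in the astrocyte fraction. The input held 2.15, 2.81, 3.83, 3.65 and 1.69 CPM. The lowest fraction library was well above the highest input library (3.21-fold; log2 1.68 ± 0.25, edgeR adjusted p = 3.71e-05). Its neighbour Col4a6 stood at 0.712, 0.587, 1.57, 0.577 and 0.859 CPM in the astrocyte fraction and 1.73, 1.6, 0.869, 1.29 and 0.761 CPM in the input, of which the value of fraction 92 is 2 counts. It was not called (log2 -0.46 ± 0.32, edgeR adjusted p = 0.223), was lower without 976 and 982 (-1.08, edgeR adjusted p = 0.0194), and gave a log2 ratio of Col4a5 to Col4a6 of 2.91 to 4.05 in the fraction and 0.32 to 2.14 in the input. Per kb of exon Col4a5 held 18.6 ± 3.61% of the collagen IV chains measured in the fraction and 4.31 ± 1.21% in the input. Endothelial and pericyte or smooth muscle markers, whose cells also make collagen IV, summed to 85.6 to 135.5 and 130 to 198 CPM in the fraction and 131 to 169 and 142 to 182 CPM in the input; 5 of 10 and 8 of 10 were called lower, 0 and 2 were called higher, Abcc9 was at 0 in a fraction library, and their part in the collagen IV values was not tested.

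Col8a1 and Col8a2, short-chain network collagens of vessels and the cornea, and Col4a4 had their highest fraction values in libraries 976 and 982. Col8a2 stood at 1.02, 0.587, 195, 0.641 and 38.1 CPM in the astrocyte fraction and 4.13, 1.43, 38.1, 2.43 and 11.7 CPM in the input. In the fraction, number 976 was 304 times the median of 88, 92 and 981. Col8a1 showed the same 2 libraries, with 1.08, 1.17, 82.2, 0.428 and 15.4 CPM in the astrocyte fraction. Its input values were 3.3, 2.46, 18, 6.97 and 4.64 CPM. Neither was called in all libraries (Col8a2: log2 2.06 ± 1.89, edgeR adjusted p = 0.281; Col8a1: log2 1.55 ± 1.46, edgeR adjusted p = 0.312), and both were lower without 976 and 982 (Col8a2: -1.54, edgeR adjusted p = 0.0155; Col8a1: -2.17, edgeR adjusted p = 0.00486). Col4a4, at 10.6 CPM in fraction 976 and 0 to 1.98 CPM in the other fraction libraries, was called in neither fit (log2 1.17 ± 1.49, edgeR adjusted p = 0.396; -0.82, edgeR adjusted p = 0.311 without 976 and 982).

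Among 11 fibrillar collagens, which form or seed the fibrils of connective tissue, 3 were higher (27.3%) and 5 lower (45.5%), near the background of 33.1% and 37.5%, and 3 of the 5 lower had 5 counts in every library of the input only. Col1a2 (chr6:4504814-4541544), the second chain of collagen I, read 48.2, 39.1, 35.6, 34.3 and 37.3 CPM in the astrocyte fraction and 18.2, 16.2, 14.6, 14.2 and 16.4 CPM in the input. The lowest fraction library had 34.3 CPM and the highest input library 18.2 CPM (2.43-fold; log2 1.28 ± 0.11, edgeR adjusted p = 3.93e-07). Col1a1, the chain that makes up most of each collagen I molecule, was 8.13, 8.79, 5.79, 7.26 and 10.3 CPM in the astrocyte fraction. Input libraries read 9.25, 8.69, 10.4, 5.01 and 8.36 CPM. The groups overlapped throughout (log2 -0.06 ± 0.23, edgeR adjusted p = 0.808), and the log2 ratio of Col1a2 to Col1a1 was 1.86 to 2.62 in the fraction and 0.50 to 1.5 in the input.

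Collagens V and XI, which set fibril size, parted by chain as well. Col5a2 stood at 6.59, 5.63, 3.79, 4.96 and 4.42 CPM in the astrocyte fraction and 2.61, 2.38, 1.66, 2.41 and 1.4 CPM in the input. Its groups did not overlap (log2 1.23 ± 0.21, edgeR adjusted p = 3.54e-04). Col5a1 was lower (log2 -0.79 ± 0.32, edgeR adjusted p = 0.0299), a call lost without 976 and 982 (-0.68, edgeR adjusted p = 0.204) and without fraction 976, fraction 981, input 92 or input 976 (edgeR adjusted p 0.0642 to 0.0788). The log2 ratio of Col5a2 to Col5a1 was 1.04 to 2.54 in the fraction and -1.21 to 0.02 in the input. Col11a1, best known from cartilage and inner ear, read 2.85, 1.17, 2.42, 2.56 and 2.24 CPM in the astrocyte fraction. The input held 12.2, 16.9, 13.1, 13.5 and 7.87 CPM. Each fraction library was under 3 CPM (5.19-fold lower; log2 -2.38 ± 0.28, edgeR adjusted p = 8.05e-07). Col11a2 was higher (log2 0.62 ± 0.14, edgeR adjusted p = 9.09e-04), so that the log2 ratio of Col11a2 to Col11a1 was 3.35 to 5.10 in the fraction and 0.52 to 1.61 in the input.

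Col24a1, a minor fibrillar collagen of bone, gave 0.0816, 1.17, 0.239, 0 and 0.0452 CPM in the astrocyte fraction and 1.59, 3.62, 1.52, 0.322 and 1.34 CPM in the input. The 1.17 CPM of fraction 92 stands for 4 counts, and input 981 was below it, so the groups overlapped (log2 -2.92 ± 0.85, edgeR adjusted p = 0.00279). Col27a1, of cartilage, was lower without overlap (log2 -1.71 ± 0.24, edgeR adjusted p = 2.52e-05). Col3a1, the partner of collagen I in soft tissue, was lower (log2 -0.87 ± 0.32, edgeR adjusted p = 0.0187) but not without 976 and 982 (-0.41, edgeR adjusted p = 0.234), nor without fraction 976 or fraction 982 alone (edgeR adjusted p 0.0548 and 0.0535). Col2a1 (log2 0.44 ± 0.21, edgeR adjusted p = 0.106) and Col5a3 (log2 -0.31 ± 0.29, edgeR adjusted p = 0.324) were not called, though Col2a1 was higher without fraction 92 (0.53, edgeR adjusted p = 0.0460) or fraction 976 (0.60, edgeR adjusted p = 0.0435). Fibroblast markers moved with library 88: 9 meningeal and perivascular markers summed to 177, 26.2, 51.3, 16.5 and 20.4 CPM in the fraction and 65.5, 29.6, 51.7, 24.6 and 38.4 CPM in the input, with 1 called higher, 2 lower and Lum at 0 in a fraction library, and their part in the fibrillar collagens was not tested.

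**Figure D4:**
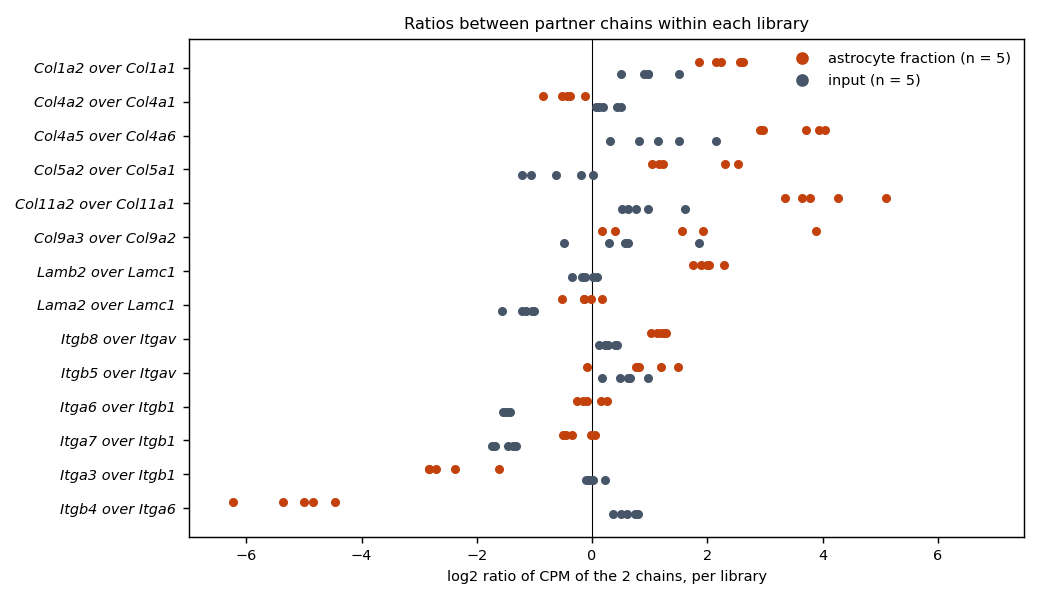
Log2 ratio of the CPM of 2 chains within each library (horizontal axis) for 14 pairs, with the 5 astrocyte fraction libraries above the 5 input libraries in each row. Ranges of the 2 groups overlap for Col9a3 over Col9a2 and for Itgb5 over Itgav and are apart for the other 12 pairs, widest for Itgb4 over Itga6.

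The other 23 collagens, which sit on fibrils, span membranes or form beaded filaments, were higher in 4 cases (17.4%) and lower in 13 (56.5%), beside a background of 33.1% and 37.5%. Of the 13 lower, 10 had 5 counts in every library of the input only, a kind of gene of which 53.7% were lower. Col9a3, a chain of the fibril-associated collagen IX of cartilage, stood at 51.9, 53.4, 262, 51.1 and 93.5 CPM in the astrocyte fraction. Its input values were 11.6, 18.4, 53.5, 17.6 and 20.3 CPM. Number 976 was highest in both groups, so fraction and input overlapped by that input library, but each number had more in the fraction (log2 2.09 ± 0.58, edgeR adjusted p = 0.0137; 1.82, edgeR adjusted p = 1.53e-05 without 976 and 982). Per kb of exon Col9a3 held the largest mean share of the 41 collagen chains in the fraction, 30.4 ± 7.86%, against 10.9 ± 5.41% in the input. Its partner Col9a2 was higher without overlap (log2 1.05 ± 0.29, edgeR adjusted p = 0.00228), while Col9a1, at or below 0.723 CPM in each fraction library, was not called (log2 -1.32 ± 0.67, edgeR adjusted p = 0.053) and was lower with the block (-1.65, edgeR adjusted p = 0.0154), under total-count scaling (-1.55, edgeR adjusted p = 0.0264), and without fraction 982 or input 92 (edgeR adjusted p 0.00292 and 0.0402).

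Col23a1, a collagen that spans the cell membrane, read 13.6, 7.74, 12.2, 9.64 and 11.1 CPM in the astrocyte fraction and 4.07, 2.4, 3.82, 3.39 and 4.34 CPM in the input. The groups were apart (2.99-fold; log2 1.58 ± 0.21, edgeR adjusted p = 1.06e-05). Col16a1 was slightly higher (log2 0.34 ± 0.14, edgeR adjusted p = 0.0314), a call lost under total-count scaling (0.06, edgeR adjusted p = 0.715) and without fraction 88, fraction 982, input 88, input 92 or input 981 (edgeR adjusted p 0.0641 to 0.0826), and kept without 976 and 982 together (0.55, edgeR adjusted p = 0.0138). These are the only 4 higher calls among the 23.

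At the low end, Col15a1, a collagen of vessel and muscle basement membranes, stood at 0.95, 1.66, 0.253, 0.385 and 1.13 CPM in the astrocyte fraction. Input libraries read 10.7, 11.8, 12.3, 15 and 10.1 CPM. Each fraction library was under 2 CPM and each input library above 10 CPM (14.5-fold lower; log2 -3.85 ± 0.47, edgeR adjusted p = 1.01e-06). Col26a1 gave 0.959, 2.62, 0.663, 0.945 and 1.29 CPM in the astrocyte fraction and 7.75, 12.4, 8.7, 10.5 and 8.45 CPM in the input. Its groups were also apart, by less than those of Col15a1 (7.99-fold lower; log2 -3.0 ± 0.33, edgeR adjusted p = 8.68e-07). Col25a1, a membrane collagen of neurons, read 12.7, 46.1, 14.7, 16.9 and 20.03 CPM in the fraction and 85.4, 178, 65.1, 126 and 84 CPM in the input, with number 92 the highest of either group (log2 -2.4 ± 0.41, edgeR adjusted p = 3.90e-04). It was the collagen with the largest mean per-kb share of the input, 15.5 ± 6.18%, and held 2.80 ± 2.43% in the fraction. In input 976 Col25a1 held 7.29%, below Col9a3 at 20.1%. The 12 neuronal markers, all called lower and none at 0 in any library, summed to 1210 to 1682 CPM in the fraction and 6456 to 7774 CPM in the input, and their part in the Col25a1 value was not tested.

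Collagen VI, the beaded filament collagen of connective tissue, had 0 of 6 chains higher and 5 lower. All 6 have under 5 counts in a fraction library and are in the table through the input alone, which left little room for a higher value (background of such genes 4.92% higher and 53.7% lower), so these counts are a description only. The lower chains ran from Col6a4 (log2 -2.09 ± 0.66, edgeR adjusted p = 0.00398) to Col6a6 (log2 -2.85 ± 0.46, edgeR adjusted p = 4.42e-05), and the call of Col6a2 (log2 -2.21 ± 0.80, edgeR adjusted p = 0.00473) was lost without 976 and 982 (-1.75, edgeR adjusted p = 0.076). Col6a5 was not called (log2 -1.03 ± 0.51, edgeR adjusted p = 0.0533) but was lower with the block (-1.11, edgeR adjusted p = 0.0374), under total-count scaling (-1.26, edgeR adjusted p = 0.0211) and without fraction 88 or fraction 92 (edgeR adjusted p 0.00748 and 0.0471). Of the fibril-associated chains, Col12a1 (-2.97; edgeR adjusted p = 1.52e-04) and Col19a1 (-2.69; edgeR adjusted p = 7.87e-05) were lower without overlap. Col22a1 (log2 -1.52 ± 0.56, edgeR adjusted p = 0.00227) lost its call without 976 and 982 (-1.15, edgeR adjusted p = 0.0736), and Col14a1 (log2 -1.26 ± 0.50, edgeR adjusted p = 0.0254) lost it without fraction 88, fraction 981, input 88 or input 976 (edgeR adjusted p 0.0505 to 0.0795). Col20a1 was not called (log2 -1.48 ± 0.77, edgeR adjusted p = 0.0508), but was lower with the block (-1.51, edgeR adjusted p = 0.00976), under total-count scaling (-1.69, edgeR adjusted p = 0.0291) and without fraction 92, fraction 976 or input 981 (edgeR adjusted p 0.00629 to 0.0370). Col7a1, of the anchoring fibrils of skin, was lower (log2 -2.26 ± 0.77, edgeR adjusted p = 0.0049). Col13a1, a membrane collagen of the neuromuscular junction, was not called (log2 -1.17 ± 0.73, edgeR adjusted p = 0.0828), but was lower under total-count scaling (-1.41, edgeR adjusted p = 0.0406) and without fraction 88 (-1.88, edgeR adjusted p = 0.00810).

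Col18a1, the source of endostatin, and Col17a1, a collagen of epithelial anchoring sites, depended on number 976. Col18a1 stood at 2.98, 2.05, 25.6, 1.89 and 6.03 CPM in the astrocyte fraction. The input held 8.67, 12, 14.2, 8.26 and 13.1 CPM. Only fraction 976 exceeded the input, and the call appeared without 976 and 982 (all libraries: log2 -0.48 ± 0.70, edgeR adjusted p = 0.544; without: -1.88, edgeR adjusted p = 2.69e-04) or without fraction 976 alone (-1.63, edgeR adjusted p = 0.000691). Col17a1, at 9.30 CPM in fraction 976 and 0.0408 to 0.587 CPM in the other fraction libraries, was likewise called only without it (all libraries: log2 1.02 ± 1.19, edgeR adjusted p = 0.438; without 976 and 982: -2.13, edgeR adjusted p = 0.0207; without fraction 976 alone: -1.86, edgeR adjusted p = 0.0257).

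Fibronectin, fibulins, fibrillins and emilins were higher in 3 (33.3%) and lower in 4 (44.4%) of 9 genes, near the background of 33.1% and 37.5%. Fbln5, a fibulin that helps to assemble elastic fibres, stood at 104, 63.9, 26.7, 97.2 and 37.1 CPM in the astrocyte fraction and 17.7, 14.6, 9.46, 19.7 and 13 CPM in the input. Numbers 88 and 981 were the highest and 976 the lowest of each group, and the groups did not overlap (4.4-fold; log2 2.14 ± 0.42, edgeR adjusted p = 6.13e-04). Fbln1, a fibulin that binds fibronectin and laminin, read 65, 38.5, 43.5, 58.4 and 51.3 CPM in the astrocyte fraction. Its input values were 19.1, 20.3, 17.1, 12.7 and 21.8 CPM. The lowest fraction library was well above the highest input library (2.83-fold; log2 1.5 ± 0.19, edgeR adjusted p = 3.47e-06). Per kb of exon, Fbln1 at 11.8 ± 2.46 and Fbln5 at 9.51 ± 4.998 CPM per kb in the fraction stood beside 4.17 ± 0.803 and 2.15 ± 0.577 in the input (SD, n = 5 each).

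Fn1, fibronectin, gave 10.01, 4.66, 3.19, 8.33 and 7.52 CPM in the astrocyte fraction and 20.4, 17.4, 9.81, 13.9 and 11.6 CPM in the input. Each number had less in the fraction than in its input, with a small overlap by fraction 88 and input 976 (2.11-fold lower; log2 -1.08 ± 0.35, edgeR adjusted p = 0.00534). Fbn2, the fibrillin of developing microfibrils, stood at 0.438, 0, 0.199, 0.772 and 0.691 CPM in the astrocyte fraction. Input libraries read 3.37, 4.48, 3.96, 3.68 and 2.57 CPM. All fraction libraries were below 1 CPM (log2 -2.71 ± 0.63, edgeR adjusted p = 2.40e-05). Fbn2 was in the table through the input alone, which left little room for a higher value. Emilin2, a glycoprotein of elastic tissue, read 0.819, 3.52, 1.55, 1.16 and 1.98 CPM in the astrocyte fraction and 14.2, 14.5, 11.6, 11 and 13 CPM in the input. The groups were apart (7.79-fold lower; log2 -2.96 ± 0.35, edgeR adjusted p = 9.36e-07).

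Emilin1 was higher (log2 0.72 ± 0.25, edgeR adjusted p = 0.0241), a call lost with title number as a block (0.67, edgeR adjusted p = 0.052), under total-count scaling (0.44, edgeR adjusted p = 0.145) and without fraction 88, input 92 or input 982 (edgeR adjusted p 0.0538 to 0.0818). Fbln2 was lower (log2 -0.49 ± 0.12, edgeR adjusted p = 0.0272), a call lost with the block (-0.50, edgeR adjusted p = 0.0609), without 976 and 982 (-0.33, edgeR adjusted p = 0.305) and without any of 7 single libraries, fraction 88, 976, 981 and 982 and input 88, 976 and 981 (edgeR adjusted p 0.0510 to 0.116). Fbln7 was not called (log2 -0.98 ± 0.91, edgeR adjusted p = 0.0709), and was lower with the block (-1.16, edgeR adjusted p = 0.0146), under total-count scaling (-1.24, edgeR adjusted p = 0.0306) and without fraction 976 (-1.33, edgeR adjusted p = 0.0147). Fbn1, the main fibrillin, was not called (log2 -0.43 ± 0.50, edgeR adjusted p = 0.405), with 14.8 CPM in fraction 976, and was lower without 976 and 982 (-1.42, edgeR adjusted p = 0.00148) and without fraction 976 alone (-0.99, edgeR adjusted p = 0.0139). An antisense model, Gm9913, covers 20.1% of its exon bases.

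The 3 genes that match by name only were Itgb1bp1, higher (log2 0.81 ± 0.12, edgeR adjusted p = 2.63e-05) with 17.1% of its exon bases under Asap2 and Cpsf3 on the other strand, Itgb3bp, higher (log2 0.70 ± 0.13, edgeR adjusted p = 0.00415) but not under total-count scaling (0.41, edgeR adjusted p = 0.0609), and Col4a3bp, lower (log2 -0.37 ± 0.07, edgeR adjusted p = 7.41e-04). Besides Itgb1bp1 and Fbn1, 8 of the 89 genes share 5.05% to 8.59% of exon bases with a gene on the other strand. Itgb3bp (8.59%, with Pgm1), Itgav, Itgb4 and Col9a3 are among them. Whether counting used strand is not given in the sources used here.

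Libraries 976 and 982 were the top pair of the fraction for 15 of 88 members, 17.05%, against 16.7% of all genes tested, and the top pair of both groups for 6, 6.82%, against 5.30%. Those 6 were Col8a2, Col4a4, Nid2, Hspg2, Col9a3 and Col18a1. Beside them the choroid plexus markers, given above, were 1 of 7 called higher, 0 lower and none at 0 in any library, and 5 ependymal markers summed to 49.3, 26.3, 183.6, 44.0 and 85.3 CPM in the fraction and 27.2, 15.5, 67.2, 17.7 and 63.6 CPM in the input, with 1 called higher, 0 lower and Tmem212 at 0 in a fraction library; their part in these values was not tested. Without the numbers, calls appeared for 9 members, each lower, and 9 were lost.

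**Figure D5:**
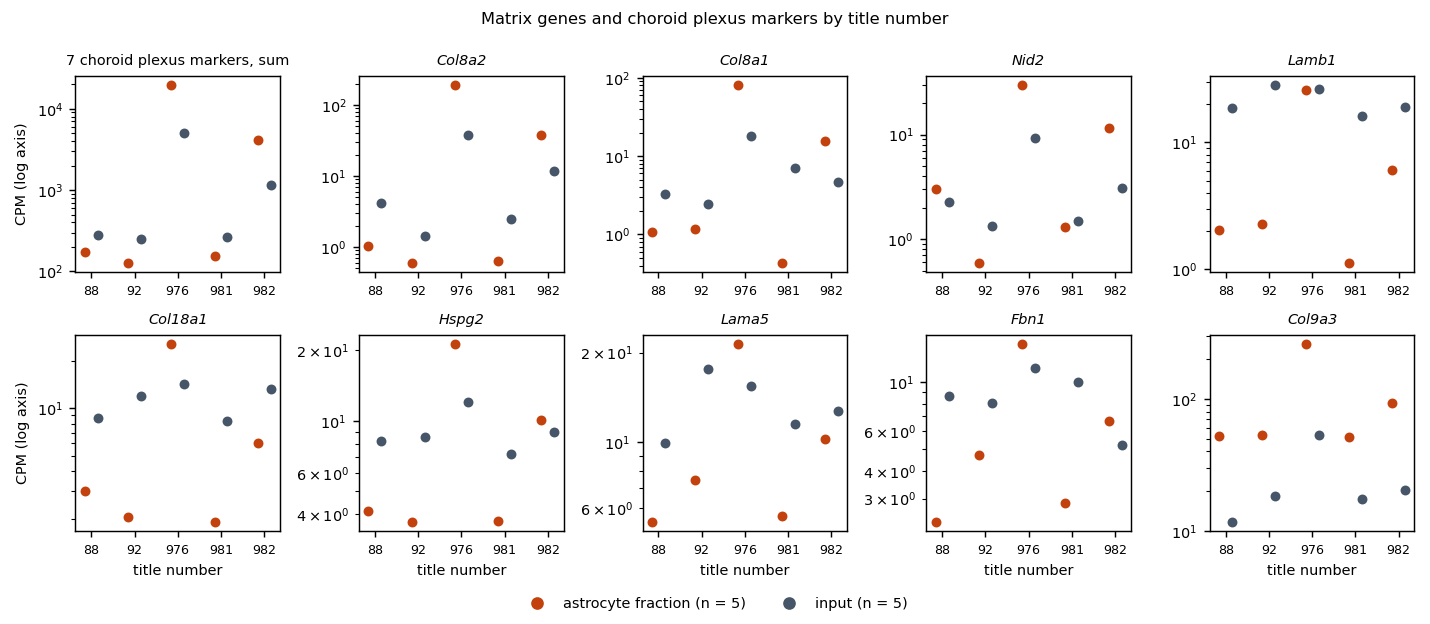
CPM (log axis) by title number for the summed choroid plexus markers and 9 matrix genes, with the astrocyte fraction left of the input at each number. Number 976 is the highest fraction library in all 10 panels, with 14.8 CPM of Fbn1, 195 CPM of Col8a2 and 262 CPM of Col9a3.

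Enzymes and chaperones that build collagen were mostly higher: 16 of 25 rose, 5 fell and 4 had no call, beside 33.1% of all genes tested that were higher and 37.5% lower. Their median log2 difference was 0.84, beside -0.06 over all genes tested. This list and those of integrin partners and other receptors below were chosen with earlier results of these data known. Their counts are thus a description only. Fkbp10, a prolyl isomerase that works on collagen, stood at 68.6, 54.8, 57.2, 66.9 and 75.3 CPM in the astrocyte fraction. The input held 8.54, 7.77, 8.14, 6.4 and 8.34 CPM. The groups were far apart (log2 3.03 ± 0.11, edgeR adjusted p = 2.11e-10). P4ha1, a catalytic subunit of prolyl 4-hydroxylase, read 141, 137, 137, 147 and 143 CPM in the astrocyte fraction and 49.4, 53.7, 43.2, 52.1 and 45.1 CPM in the input, within a narrow range in each group (log2 1.53 ± 0.06, edgeR adjusted p = 1.47e-09). Loxl3, a lysyl oxidase relative that cross-links matrix, gave 21.2, 25.6, 20.8, 19.5 and 25.2 CPM in the astrocyte fraction and 3.48, 3.8, 3.77, 3.59 and 2.74 CPM in the input (log2 2.66 ± 0.12, edgeR adjusted p = 1.85e-09). In the other direction were Adamts3 (log2 -2.33 ± 0.84, edgeR adjusted p = 3.24e-05) and Adamts2 (log2 -1.29 ± 0.26, edgeR adjusted p = 1.82e-04), which trim procollagen ends, and P4ha2 (log2 -1.18 ± 0.19, edgeR adjusted p = 4.85e-05).

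Partners of integrin tails inside the cell rose for 16 of 26 and fell for 8, and 2 had no call (median log2 difference 0.74; background 33.1% higher and 37.5% lower). Fermt2, a kindlin that activates integrins, stood at 337, 363, 286, 361 and 363 CPM in the astrocyte fraction and 70.9, 75.1, 68.8, 61.8 and 63.5 CPM in the input. Its relative Fermt3, of blood cells, was 0.816, 0, 0.47, 0.47 and 0.452 CPM in the astrocyte fraction. Its input values were 6.38, 4.74, 5.73, 3.28 and 3.74 CPM. So the 2 kindlins had opposite calls (Fermt2: log2 2.33 ± 0.08, edgeR adjusted p = 1.90e-10; Fermt3: log2 -3.03 ± 0.62, edgeR adjusted p = 3.43e-06). Tns3, a tensin, read 578, 476, 415, 514 and 499 CPM in the astrocyte fraction and 104, 90.5, 93.4, 92.8 and 81.4 CPM in the input (log2 2.42 ± 0.10, edgeR adjusted p = 2.84e-10). Rsu1, a partner of the integrin-linked kinase complex, gave 49.8, 51.9, 50.7, 55.9 and 47.4 CPM in the astrocyte fraction and 16.7, 16, 18.2, 17.1 and 18.9 CPM in the input (log2 1.55 ± 0.06, edgeR adjusted p = 2.71e-09). Tln2, a talin, was lower (log2 -2.05 ± 0.22, edgeR adjusted p = 1.52e-06), as was Lims2, an adaptor of the same complex (log2 -1.8 ± 0.20, edgeR adjusted p = 3.07e-06).

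Matrix receptors other than integrins rose for 11 of 14 and fell for 2, and 1 had no call (median log2 difference 1.15), against the same background of 33.1% higher and 37.5% lower. Sdc4, a syndecan of focal adhesions, stood at 909, 864, 754, 829.9 and 771 CPM in the astrocyte fraction and 96, 75.8, 97.6, 85.4 and 88.6 CPM in the input. It was the largest difference of the 3 lists (9.3-fold; log2 3.22 ± 0.08, edgeR adjusted p = 5.08e-11). Dag1, dystroglycan, the laminin receptor of astrocyte endfeet, gave 318, 333, 269, 354 and 316 CPM in the astrocyte fraction and 85.6, 94.7, 83.1, 84.3 and 77.7 CPM in the input (log2 1.9 ± 0.08, edgeR adjusted p = 6.54e-10). Sdc3, a neural syndecan, read 1679, 1481, 1326, 1601 and 1863 CPM in the astrocyte fraction and 398, 372, 338, 382 and 369.7 CPM in the input (log2 2.1 ± 0.09, edgeR adjusted p = 8.05e-10). The 2 lower genes were Cspg4 (log2 -1.81 ± 0.20, edgeR adjusted p = 1.04e-06), also a marker of oligodendrocyte precursors, and Sgcd (log2 -0.86 ± 0.16, edgeR adjusted p = 0.00651).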

How the data were processed

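The authors deposited 1 table of 18464 genes in which each of the 10 libraries has a column of estimated counts (also called expected counts) and a column of normalized log2 values. CASAVA 1.8, DESeq and the build mm10 are named, per the submitters' processing notes, without their roles; aligner, counting tool and strand setting: not given in the sources used here. The deposited expected counts, made whole by rounding, went into edgeR 4.0.16 (R 4.3.3) with TMM factors, the filterByExpr rule at a minimum of 10 counts (17672 of 18464 genes kept), the robust quasi-likelihood test, a prior count of 2 and Benjamini-Hochberg adjustment over all genes tested, called under 0.05. The deposited normalized log2 values entered only an alternative with limma 3.58.1. DESeq2 1.42.0 was another. Standard errors come from the log2 CPM of 5 and 5 libraries.

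Levels between genes were compared per kb of exon, with exons from GENCODE M21 on GRCm38. All annotated exons of a gene were joined, which can exceed the transcript expressed, so ranks and shares between genes are approximate. Libraries with the same title number deviated together from their group means (correlations 0.386, 0.198, 0.493, 0.322 and 0.189 for 88, 92, 976, 981 and 982). The best match of a fraction library was its own input for 88, 92, 976 and 981, but not for 982. The data thus pair the libraries by number only in part, and the labels do not state a pairing. A fit with title number as a block is given where it changes a call.

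Values in each library are given for 32 genes by a rule: in each role class up to 2 called genes with the largest positive and up to 2 with the largest negative log2 difference among those with a mean of 1 CPM or more in a group, and also Col4a1, Col4a2, Lama2, Lamb2, Lamc1, Fn1, Hspg2, Itgb1, Itgav and Itga6, with up to 3 called genes a direction by adjusted p from each pathway list. Genes shown beyond it, and the chain pairs, were chosen after values were seen. The members, marker lists and pathway lists were chosen with earlier results of these data known. The test was also run on simulated counts of independent libraries with 200 changed genes. In the data 70.6% of genes were called and libraries of the same number deviated together, so that run does not cover these conditions. The values of 1 laminin gene are not reported here.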

Additional observations from a re-analysis of the deposited data

Results flagged for a closer look

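A library was singled out where its gap to the nearest other library of its group of 5, divided by the range of the group, passed Dixon's critical value of 0.71. For independent, normally distributed values about 1 in 20 groups would pass. The CPM were not checked for this and members shared deviating libraries, so the 26 groups found of 178 are a description only. Fraction library 976 accounts for 10, each high: Col8a2 (gap over range 0.807), Col8a1 (0.816), Col4a4 (0.814), Col4a6 (0.717), Itga5 (0.748), Itga3 (0.726), Lamb1 (0.801), Col9a3 (0.799), Col17a1 (0.941) and Col18a1 (0.826). Its input library was high for Col8a2 (0.721), Nid2 (0.782) and Col9a3 (0.793).

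Fraction library 92, the one with the fewest counts, was high for Col24a1 (0.796), Col6a4 (0.744) and Col25a1 (0.780) and low for Itgal (0.882) and Itgb5 (0.779). In that library Col24a1 had 4 counts, Col6a4 had 3 and Itgal had 0, so those flags may be counting error. Fraction library 88 was high for Lamc3 (0.71) and Col6a2 (0.794). Input library 88 was high for Itga2b (0.868), Itga11 (0.796) and Col6a2 (0.769) and low for Col5a3 (0.793) and Lama3 (0.767). Input library 92 was high for Col12a1 (0.759).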

How the results depend on the processing

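Of 63 called members, 48 (18 higher, 30 lower) were called in the same direction under all 16 alternatives other than the filter at a mean of 5 CPM. With title number as a replicate block, 23 members were higher and 46 lower, against 23 and 40 without it, and over all genes 33.3% were higher and 38.7% lower with the block, against 33.1% and 37.5%. That filter left 43 members, of which 18 were higher and 14 lower, and 1 lower non-integrin receptor against 2; without 976 and 982 that list also had 1 lower. DESeq2 gave 23 higher and 41 lower, limma on the authors' log2 values 22 and 42. Fbln7 was also lower with DESeq2 (DESeq2 adjusted p = 0.0271). With limma, Lamb1, Itga11 and Col9a1 were also lower (limma adjusted p = 0.0116, 0.0444 and 0.0128). Col14a1 and Col16a1 lost their calls there (limma adjusted p = 0.0765 and 0.0792). Under the 5 CPM filter Col4a1 was lower (edgeR adjusted p = 0.0430) and Col16a1 lost its call (edgeR adjusted p = 0.0956). Leaving out 1 library gave 21 to 24 higher and 35 to 43 lower members. The share of all genes under the 5 CPM filter, DESeq2, limma and the omission of 1 library is not given here. Nor is the share of all calls kept under every alternative. These counts of members are thus a description only.

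No called member turned its direction. Among members not called, signs turned without 976 and 982 for Col17a1 (-2.13), Col1a1 (0.16), Col4a4 (-0.82), Col8a1 (-2.17), Col8a2 (-1.54), Itga5 (-0.23) and Lamc1 (0.0399). With limma on the authors' log2 values they turned for Col17a1 (-1.15), Col4a4 (-0.51), Col8a1 (-0.58) and Col8a2 (-0.26), with the block for Col17a1 (-0.33) and with no filter for Hspg2 (0.0093). Leaving out 1 library at a time gave -1.86 to 1.51 for Col17a1, -0.19 to 0.12 for Col1a1, -0.64 to 1.94 for Col4a4, -0.44 to 2.25 for Col8a1, -0.59 to 0.20 for Hspg2 and -0.0797 to 0.0675 for the log2 fold change of Lamc1. The cause was not tested.

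Depth limits fraction library 92 most, where a count of 0 allows 0.880 CPM. Members at 0 in that library, such as Fbn2, Lamb3 and Col6a6, are known there only as low. The 1.17 CPM of Col24a1 in it stands for 4 counts.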

Other observations

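Other genes of collagen assembly that the naming rule left out were picked here after their values were seen. Serpinh1, the collagen chaperone of the endoplasmic reticulum, stood at 92.5, 100.2, 132, 93.5 and 105 CPM in the astrocyte fraction and 18.2, 17.5, 27.8, 15 and 23.1 CPM in the input, with no overlap and 976 highest in both groups (log2 2.36 ± 0.18, edgeR adjusted p = 5.41e-08). P4ha3, another catalytic subunit of prolyl 4-hydroxylase, read 71, 56.5, 45.4, 72.2 and 63.2 CPM in the astrocyte fraction and 11.3, 8.34, 8.05, 10.7 and 9.58 CPM in the input (log2 2.68 ± 0.15, edgeR adjusted p = 3.84e-09), so that P4ha1 and P4ha3 were higher and P4ha2 was lower. Plod2, which hydroxylates the lysines used for cross-links, gave 20.8, 24, 16.4, 26.2 and 21 CPM in the astrocyte fraction and 4.86, 5.23, 4.75, 6.08 and 3.998 CPM in the input (log2 2.1 ± 0.15, edgeR adjusted p = 5.65e-08). Pcolce, an enhancer of procollagen processing, followed the title numbers as Col8a2 did, with 6.81, 1.47, 110.2, 1.39 and 19.9 CPM in the astrocyte fraction and 5.18, 3.68, 24.8, 2.85 and 7.35 CPM in the input, and was not called (log2 1.71 ± 1.30, edgeR adjusted p = 0.23).

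Opposite calls also appeared within small families of adhesion partners. Parva (log2 1.02 ± 0.11, edgeR adjusted p = 1.21e-06) and Parvb (log2 1.36 ± 0.20, edgeR adjusted p = 1.56e-05), parvins of most tissues, were higher, and Parvg (log2 -2.92 ± 0.58, edgeR adjusted p = 1.67e-05), the parvin of blood cells, was lower. Sspn, sarcospan of the dystroglycan complex, stood at 80.3, 84.2, 47.3, 85.6 and 61.3 CPM in the astrocyte fraction and 16.5, 15.3, 13.8, 18.1 and 17.1 CPM in the input, without overlap (log2 2.14 ± 0.18, edgeR adjusted p = 7.65e-08).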
